A study of Mus musculus with 6 samples.

Results

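The genes described here are 33 mouse genes of the pyruvate dehydrogenase (PDH) complex, the tricarboxylic acid (TCA) cycle and glutamine use, picked by symbol for these roles. Each of the 33 symbols matched 1 of the 57010 gene identifiers of the count table, and all 33 passed the filter on low counts, which 16439 genes passed in all. RNA was sequenced from CD8 T cells of C57BL/6 mice 8 weeks of age. Naive cells sorted from spleen and lymph nodes had received CD3 and CD28 antibodies for a 24 hour stimulation. MondoAfl/fl mice gave the 3 WT libraries and MondoAfl/flCD4cre mice the 3 KO libraries, so the floxed allele was common to both groups and Cre was present in KO alone. The CD4cre transgene acts in developing T cells, before the cells were sorted and stimulated, and an effect of Cre itself cannot be told apart from one of the lost factor. MondoA, encoded by Mlxip, is a transcription factor that senses glucose metabolites and binds DNA together with its partner Mlx.

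PDH turns pyruvate from glycolysis into acetyl-CoA, which citrate synthase joins to oxaloacetate to start the TCA cycle in the mitochondrial matrix. The cycle passes through citrate, 2-oxoglutarate, succinate, fumarate and malate, and hands electrons to the respiratory chain. Activated T cells also take up much glutamine, which is converted to glutamate and then, by glutamate dehydrogenase or by transaminases, to 2-oxoglutarate that enters the cycle midway. The comparison of KO with WT asks whether transcripts of these enzymes and transporters differ between the genotypes.

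Total gene counts ran from 26150420 to 34447230 per library. Values per library are given as CPM, read counts scaled to a fixed library total, here after TMM scaling, a correction of library size from the bulk of genes. The floxed gene Mlxip was at 129 ± 11.1 CPM across WT libraries and 86.0 ± 6.54 CPM across KO libraries (SD, n = 3 per group), with a log2 fold change (KO over WT) of -0.58. Its adjusted p was 0.125 in edgeR's quasi-likelihood test and 0.000138 by DESeq2. Gene counts do not separate the deleted part of Mlxip from the rest. Its known targets Txnip and Arrdc4 were the 2 genes called over the whole table by edgeR, with log2 fold changes of -1.53 (adjusted p = 3.85e-05) and -3.10 (adjusted p = 4.07e-05). DESeq2 called 147 genes. The 6 CD8 T cell markers summed to 1501 to 1848 CPM in WT and 1747 to 2075 CPM in KO. Sums for other cells were far smaller, with 32.7 to 57.1 CPM in WT against 16.9 to 43.2 CPM in KO for 3 B cell genes. The WT and KO ranges were 9.38 to 20.0 and 6.64 to 11.6 CPM for 2 genes of CD4 and regulatory T cells, and 5.05 to 6.68 and 2.19 to 4.42 CPM for 2 NK genes. They were 1.34 to 4.09 and 1.14 to 1.86 CPM for 4 myeloid genes, and 0.994 to 4.46 and 1.40 to 3.51 CPM for 2 erythroid genes. The NK sums were lower in every KO library, as were the single markers Cd4, Klrb1c and Adgre1. Higher in every KO library were the CD8 markers Cd3e and Trac. The KO means of the CD4, NK and myeloid sums were 0.569, 0.594 and 0.495 of the WT means. Those of the B cell, erythroid and CD8 sums were 0.713, 0.927 and 1.14 of the WT means. No marker was at 0 in every library, and the NK marker Ncr1 was at 0 in 3. The 5 activation genes Il2ra, Cd69, Tnfrsf9, Myc and Mki67 summed to 739 to 865 CPM in WT and 607 to 892 CPM in KO. The part of other cells and of activation state in the results was not tested, and in bulk samples fewer cells of a type and less RNA per cell cannot be told apart. By Xist, WT 3 and KO 2 came from female mice and the other 4 libraries from males. Nothing in the labels says that each replicate was its own mouse, so the p-values speak of the spread among these libraries, which may be technical in part.

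Of the 33 genes, 24 had a higher fitted level in KO and 9 a lower one, and none passed the test over all genes. The median log2 fold change was 0.12 for the members and -0.016 over all genes tested, of which 47.2% were above 0. At a Benjamini-Hochberg adjusted p of 0.05 in edgeR's quasi-likelihood test 0 members were called, against 0.0122% of all genes. DESeq2 also called 0 members, against 0.894% of the genes that passed the filter on low counts, and without KO 3 edgeR called 0 members and 0.472% of genes. At an unadjusted p under 0.05 edgeR gave 4 members, all higher in KO (Oat, Slc38a2, Cs and Slc1a5), which is 12.1% against a background of 10.8% (5.05% higher and 5.77% lower). DESeq2 gave 5 at that level, all higher, Glul being the addition, against 10.2% of the genes that passed the filter (5.58% higher). These member counts moved with the libraries. By edgeR 1 was higher without WT 1 and 2 were higher without KO 1. Without WT 2 there were 8 higher and 1 lower, and without KO 3 there were 5 higher and 1 lower. The share of all genes at that level was not taken with a library left out, so these counts have no background. In 10 members, 30.3%, the 3 KO libraries lay wholly above or below the 3 WT libraries, against 16.4% of all genes tested. Of these 10, 8 were higher in KO (Cs, Dlst, Slc1a5, Slc38a1, Slc38a2, Glud1, Glul and Oat) and 2 lower (Sucla2 and Gpt2), beside 7.8% and 8.65% of all genes. With library size as the only scaling the counts were 21 higher and 12 lower, and 8 members lay apart. The median log2 fold change of all genes tested was then -0.083. The share of all genes that lay apart was not taken under that scaling.

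KO 1 and WT 3 stood at the ends of the order for many of these genes. KO 1 was the highest of the 6 libraries for 19 of the 33 genes, a share of 57.6%, whereas it was highest for 21.4% of all genes tested. WT 3 was the lowest for 13 of them, or 39.4%, against 20.7% of all genes. The median deviation of the members from their mean over the 6 libraries, on the log2 scale, was 0.13 in KO 1, -0.018 in KO 2 and 0.016 in KO 3. In WT 1 to 3 it was -0.045, -0.00025 and -0.10, so KO 2 lay within the range of the WT libraries. KO 1 also held the largest CD8 marker sum, 2075 CPM, and WT 2, the highest WT library for the members, the largest such sum in WT, 1848 CPM. The smallest CD8 marker sum was in WT 1, 1501 CPM, and not in WT 3, 1544 CPM, the lowest library for the members. WT 3 and KO 2, the lowest of their groups for the members, were the 2 libraries from female mice by Xist. The part of these sums and of sex in the pattern was not tested. Without KO 1 the median log2 fold change of the members was 0.040 with 21 genes higher, and without WT 3 it was 0.065 with 22 higher.

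**Figure D1:**
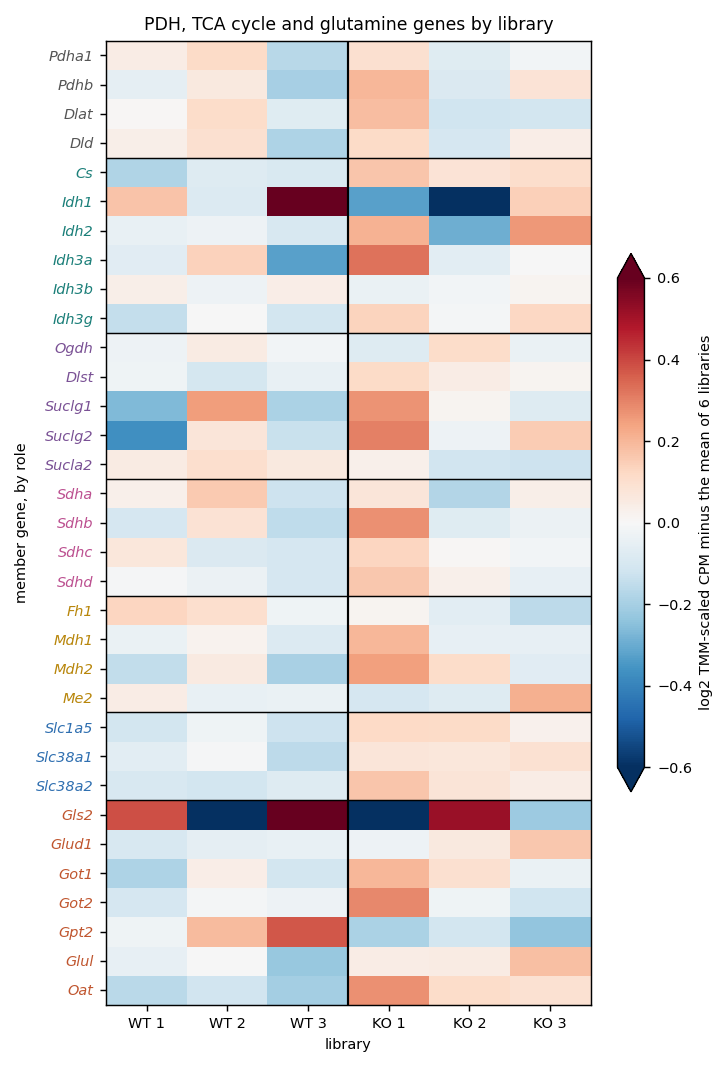
Heat map of the 33 genes (rows, grouped by role with black lines) in the 6 libraries (columns), coloured by log2 TMM-scaled CPM minus the gene's mean over the 6 libraries. Colours saturate at 0.6 in size, which values of Idh1 and Gls2 exceed. KO 1 is the reddest column. The 3 glutamine transporters and Oat are blue or pale in every WT library and red or pale in every KO library.

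Summed levels were taken for the 2 arms of the list. The 23 genes of PDH and the cycle summed to 1902, 2008 and 1815 CPM in the 3 WT libraries and to 2104, 1906 and 1978 CPM in the 3 KO libraries, so their groups overlapped. The 10 genes of glutamine transport, glutamate and the transaminases summed to 1483, 1533 and 1466 CPM in WT and to 1710, 1664 and 1662 CPM in KO. All KO sums of this arm lay above all WT sums, with a ratio of means of 1.12. Of these 10 genes, 7 lay apart between the groups (6 higher and 1 lower), and of the 23 genes 3 did (2 higher and 1 lower). The share over all genes tested, 16.4%, was above that of the 23 genes and below that of the 10, 70.0%. Sums that lay apart were not particular to the glutamine arm. For all 33 genes they reached 3541 CPM in WT and began at 3571 CPM in KO. For the 6 genes from citrate to 2-oxoglutarate these limits were 369 and 372 CPM, and the other classes of PDH and the cycle overlapped. Among the neighbouring lists described below, only pyruvate entry and PDH control lay apart, at 343 and 349 CPM. The difference between the arms was not tested.

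Levels between genes were compared as CPM per kilobase of exon, averaged over the 6 libraries. The amino acid transporter gene Slc1a5 was the most abundant at 82.9, followed by Sdha at 73.8, Glul at 60.7, Glud1 at 59.7 and Sdhd at 57.6, and each of these overlapped the next in its range over the libraries. A clear step separated Sdhd from Slc38a2 at 44.8. The middle of the order held most enzymes of the cycle, from Sdhb at 37.1 down to Dlst at 13.9, and ranges of neighbours there overlapped except between Ogdh (33.4) and Dld (26.1). Below Dlst came a group from Slc38a1 at 11.2 to Dlat at 7.23. The scarcest genes were Idh2 at 4.58, Suclg2 at 3.81, Idh1 at 1.74, Gpt2 at 0.644 and Gls2 at 0.478, all per kilobase.

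The PDH complex showed no gene with groups that lay apart. It is built from the E1 subunits Pdha1 and Pdhb, the acetyltransferase E2 encoded by Dlat, and the dihydrolipoamide dehydrogenase E3 encoded by Dld, which is shared with the 2-oxoglutarate dehydrogenase complex. The median log2 fold change of the 4 genes was 0.017, or from -0.056 to 0.084 with 1 library left out and -0.048 under library size scaling. Under that scaling the median of all genes tested was -0.083. Pdha1 averaged 61.2 ± 6.02 CPM across WT and 61.3 ± 3.65 CPM across KO libraries (SD, n = 3 per group), and its log2 fold change was 0.00016 (standard error 0.0969). Pdhb was at 91.5 ± 8.12 CPM against 100.1 ± 9.79 CPM (SD, n = 3 per group), and its log2 fold change was 0.13. The fitted values of Pdha1, Dlat (-0.025) and Dld (0.035) took the other sign in some settings, with 1 library left out or, for Pdha1 and Dld, under library size scaling.

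Citrate synthase had the smallest p of the 23 genes of PDH and the cycle. Cs (ENSMUSG00000005683), which makes citrate from acetyl-CoA and oxaloacetate, held 116, 125 and 124 CPM in the WT libraries and 148, 139 and 141 CPM in the KO libraries. The lowest KO library was above the highest WT library. Its log2 fold change was 0.23 (standard error 0.0750, adjusted p = 0.373), and with any 1 library left out it ran from 0.21 to 0.26.

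The step from isocitrate to 2-oxoglutarate is done by the NAD-linked enzyme Idh3, with catalytic subunit Idh3a and further subunits Idh3b and Idh3g. It is also done by the NADP-linked enzymes Idh1 in the cytosol and Idh2 in mitochondria. Idh3b had the smallest ratio of highest to lowest library of the 33 genes, at 79.7, 76.1 and 79.9 CPM in WT and 75.6, 76.8 and 78.6 CPM in KO. Idh3a spread far more, at 52.1, 59.9 and 43.5 CPM in WT and 68.2, 52.1 and 54.4 CPM in KO, so its groups overlapped. Idh3g had a log2 fold change of 0.17 with 91.9 CPM in WT 2 just above 91.3 CPM in KO 2. Idh1 was scarce and had the largest fitted decrease, at 5.21, 4.38 and 7.56 CPM in WT against 3.70, 3.02 and 5.12 CPM in KO. KO 3 lay above WT 2, and the log2 fold change of -0.53 (standard error 0.261, adjusted p = 0.488) ran from -0.76 to -0.28 with 1 library left out. Idh2 averaged 11.3 ± 0.267 CPM across WT and 12.4 ± 2.47 CPM across KO libraries (SD, n = 3 per group).

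The 2-oxoglutarate dehydrogenase complex takes 2-oxoglutarate to succinyl-CoA, with Ogdh as E1 and Dlst as E2. Ogdh (ENSMUSG00000020456) averaged 182 ± 5.50 CPM across WT and 182 ± 12.6 CPM across KO libraries (SD, n = 3 per group), with a log2 fold change of -0.0015 (standard error 0.0807) that took the other sign in several settings. Dlst (ENSMUSG00000004789) held 131, 124 and 129 CPM in WT and 144, 137 and 135 CPM in KO, and the groups lay apart. Its log2 fold change was 0.12 (standard error 0.0741, adjusted p = 0.576).

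Promoter sequences were read because MondoA with Mlx is known to bind a pair of E-box-like sites set apart by a short spacer. RefSeq windows on GRCm38.p6, from 250 bases before to 50 bases after each annotated start, were found for 27 of the 33 genes. The E-box CACGTG, which reads the same on both strands, stood in windows of 1 of these 27 genes (3.70%), Ogdh, and in those of 8.09% of all genes. Counted by window, it was in 3 of the 33 windows of these genes, all of Ogdh, and in 7.15% of all 32851 windows. The exact pair, CACGTG followed by any 5 bases and CACGTG again, was in 0 of the windows. A looser pair of CACGNG and CACGNG with any 5 bases between them, searched on both strands and added after the data were seen, was in 16 windows (0.0487%), 1 of them that of Txnip and none of a member. The 250 bases before the start are shown for Txnip and Arrdc4, the 2 genes called by edgeR, and for 1 of the windows of Ogdh, the only member with the E-box. Capitals mark the match, which is the looser pair in Txnip, 85 bases before the start, and the single E-box in Arrdc4 and Ogdh, 193 and 110 bases before it. They lie on chr3:96557707-96557956 (plus strand), chr7:68749239-68749488 (minus strand) and chr11:6291920-6292169 (plus strand).
Txnip: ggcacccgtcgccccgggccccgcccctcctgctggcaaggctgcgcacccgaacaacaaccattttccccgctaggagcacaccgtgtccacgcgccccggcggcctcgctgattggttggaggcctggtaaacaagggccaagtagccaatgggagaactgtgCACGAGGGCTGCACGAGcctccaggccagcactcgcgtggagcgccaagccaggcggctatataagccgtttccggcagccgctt
Arrdc4: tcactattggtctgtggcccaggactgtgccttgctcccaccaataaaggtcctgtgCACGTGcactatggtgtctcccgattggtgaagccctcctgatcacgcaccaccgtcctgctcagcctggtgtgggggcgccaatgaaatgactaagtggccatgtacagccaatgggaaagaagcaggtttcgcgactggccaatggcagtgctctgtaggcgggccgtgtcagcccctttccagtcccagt
Ogdh: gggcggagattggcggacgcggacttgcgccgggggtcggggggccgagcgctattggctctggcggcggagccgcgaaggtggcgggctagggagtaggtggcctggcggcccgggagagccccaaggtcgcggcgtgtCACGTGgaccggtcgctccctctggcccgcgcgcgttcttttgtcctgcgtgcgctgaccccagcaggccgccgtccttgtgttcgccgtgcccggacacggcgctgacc
A match describes the letters and is no evidence of binding, and the windows hold only sequence near the start.

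Succinyl-CoA synthetase, which releases succinate and makes a nucleoside triphosphate, has the alpha subunit Suclg1 and one of 2 beta subunits. Suclg2 gives the GTP-forming enzyme and Sucla2 the ATP-forming one. Suclg2 stood at 13.5, 18.3 and 15.9 CPM in WT and 21.5, 17.1 and 19.4 CPM in KO. Sucla2 (ENSMUSG00000022110) stood at 38.2, 39.6 and 38.5 CPM in WT and 37.7, 34.1 and 33.9 CPM in KO. Suclg2 was thus higher in KO on average with overlapping groups (log2 fold change 0.28), and Sucla2 lower in every KO library (-0.14), neither passing the test. Suclg1 had a log2 fold change of 0.12 and spread from 32.4 to 46.9 CPM.

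Succinate dehydrogenase, which is also complex II of the respiratory chain, is made of the flavoprotein Sdha, the iron-sulfur subunit Sdhb and the membrane anchors Sdhc and Sdhd. Sdha averaged 309 ± 29.7 CPM across WT and 299.8 ± 27.0 CPM across KO libraries (SD, n = 3 per group), and its log2 fold change was -0.044. Sdhb, Sdhc and Sdhd had log2 fold changes of 0.12, 0.080 and 0.099. All 4 genes overlapped between the groups. Without KO 1 the value of Sdhb was 0.00058, and that of Sdha was between -0.11 and 0.033 with 1 library left out.

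The last steps run through fumarase (Fh1) and malate dehydrogenase, of which Mdh2 is mitochondrial and Mdh1 cytosolic, while malic enzyme Me2 draws malate off to pyruvate in mitochondria. Mdh2 held 116, 133 and 112 CPM in WT and 153, 139 and 123 CPM in KO, with overlapping groups and a log2 fold change of 0.20. Mdh1 had 0.072, or -0.014 without KO 1. Fh1 averaged 28.6 ± 1.57 CPM across WT and 26.0 ± 1.55 CPM across KO libraries (SD, n = 3 per group), and its log2 fold change was -0.14. Me2 was highest in KO 3 at 151 CPM, with 121 and 123 CPM in KO 1 and KO 2 and from 126 to 134 CPM in WT, and its log2 fold change of 0.030 was -0.075 without KO 3.

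All 3 glutamine transporters were higher in every KO library than in any WT library, as were 7.8% of all genes tested. Slc1a5 (ENSMUSG00000001918) encodes ASCT2, a sodium-dependent exchanger of neutral amino acids and a main route of glutamine into activated T cells. It held 320.0, 339 and 316 CPM in the WT libraries and 375, 374 and 351 CPM in the KO libraries. Slc38a2 (ENSMUSG00000022462) encodes SNAT2, a sodium-coupled carrier of small neutral amino acids, and held 369, 366 and 374 CPM in WT and 444, 417 and 407 CPM in KO. Slc38a1 (ENSMUSG00000023169), encoding the related carrier SNAT1, held 185, 192 and 174 CPM in WT and 203, 203 and 206 CPM in KO. The differences were of like size. The log2 fold changes were 0.18 for Slc1a5, 0.19 for Slc38a2 and 0.15 for Slc38a1, with standard errors of 0.0730, 0.0714 and 0.0756. The adjusted p-values were 0.444, 0.394 and 0.500 (edgeR quasi-likelihood test, Benjamini-Hochberg). With 1 library left out the values stayed between 0.11 and 0.22 for all 3 genes, and the median of the 3 was between 0.15 and 0.21. Under library size scaling that median was 0.11, where the median of all genes tested was -0.083.

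Among the enzymes of glutamate, Oat (ENSMUSG00000030934) had the smallest p of the whole list. Ornithine aminotransferase links ornithine and 2-oxoglutarate to glutamate and proline precursors. It held 39.7, 41.0 and 38.5 CPM in WT and 53.7, 47.9 and 47.3 CPM in KO. Every KO library was above every WT library, by a ratio of means of 1.25. The log2 fold change was 0.32 (standard error 0.0908, adjusted p = 0.345). It ran from 0.26 to 0.36 with 1 library left out, and its adjusted p by DESeq2 was 0.126.

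Glud1 (ENSMUSG00000021794), glutamate dehydrogenase, and Glul (ENSMUSG00000026473), glutamine synthetase, which makes glutamine from glutamate, were the abundant enzymes of this arm. Glud1 held 235, 242 and 243 CPM in WT and 246, 261 and 281 CPM in KO, groups that lay apart by a small margin, with a log2 fold change of 0.13 (standard error 0.0780). Glul held 194, 201 and 172 CPM in WT and 207, 208 and 228 CPM in KO, with a log2 fold change of 0.18 (standard error 0.0867). Both were highest in KO 3, unlike most of the list.

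The aspartate transaminases, which carry amino groups between glutamate and aspartate, are Got1 in the cytosol and Got2 in mitochondria. Got1 had a log2 fold change of 0.17, from 45.4 to 53.0 CPM in WT and from 50.1 to 59.3 CPM in KO. Got2 had 0.11, and -0.024 without KO 1, where it stood at 117 CPM. The mitochondrial alanine transaminase Gpt2 (ENSMUSG00000031700) was scarce and lower in every KO library, at 3.52, 4.10 and 4.65 CPM in WT and 3.15, 3.33 and 3.04 CPM in KO, and its log2 fold change was -0.36 (standard error 0.197). Gls2, the liver-type glutaminase, stood at 2.00, 0.963 and 2.58 CPM in WT and 0.900, 2.20 and 1.32 CPM in KO. The groups overlapped widely (log2 fold change -0.32, standard error 0.428), and the fitted difference was smaller than its standard error. Gls2 held 316 reads in all, and 2.79% of its exon bases are shared with Spryd4 on the other strand, which held 1254.

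**Figure D2:**
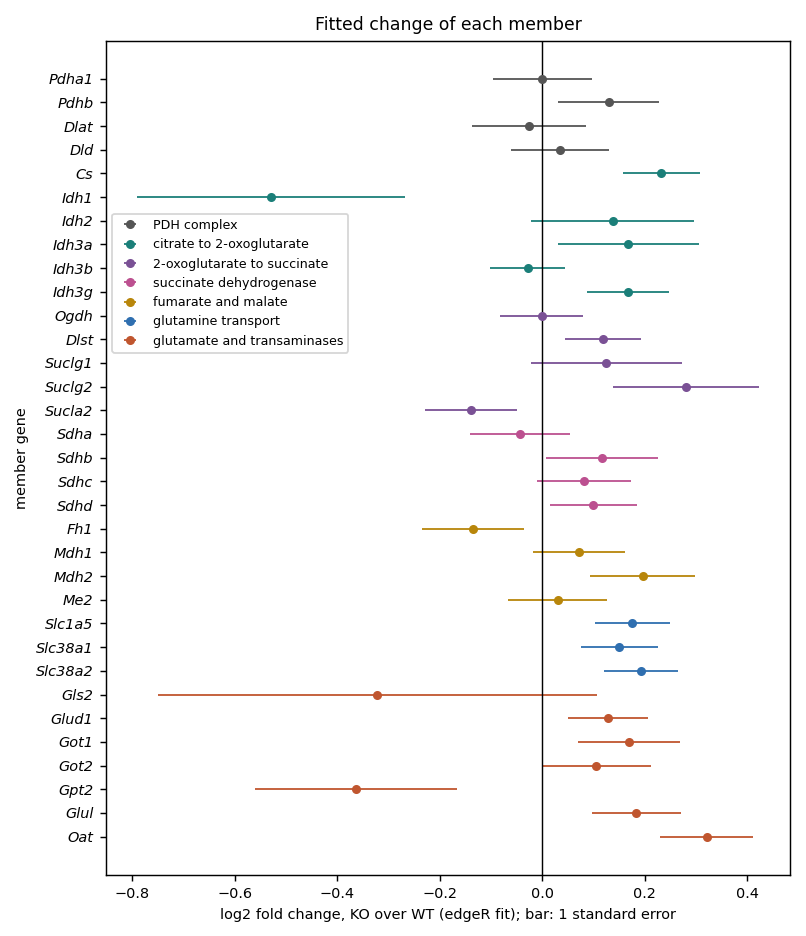
Fitted log2 fold change of each gene (KO over WT, edgeR; points) with 1 standard error to each side (bars), coloured by role. The 3 glutamine transporters cluster between 0.15 and 0.19, Oat is highest at 0.32 and Idh1 lowest at -0.53.

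**Figure D3:**
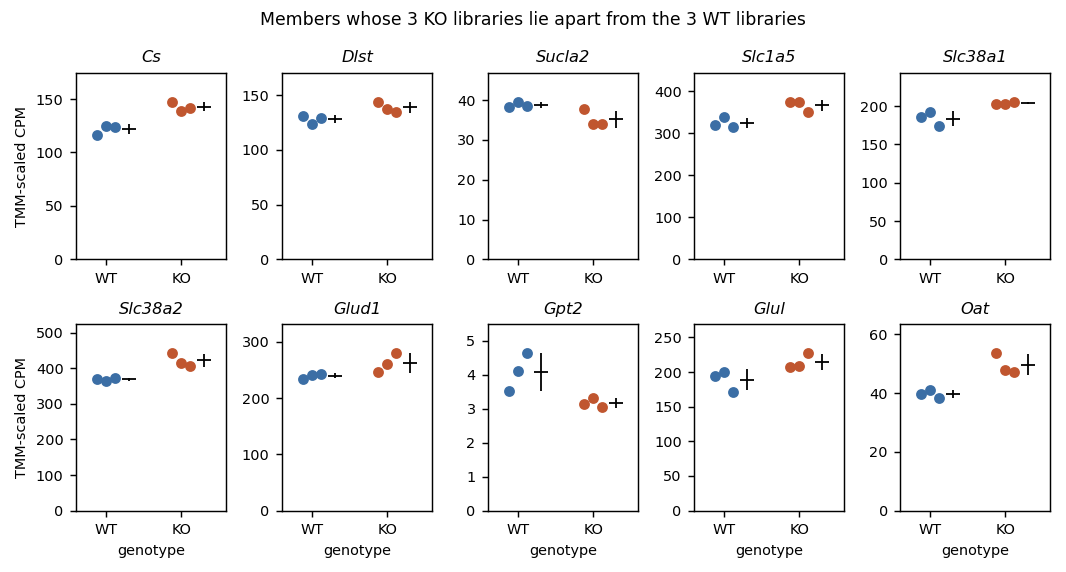
TMM-scaled CPM (vertical axes from 0) of the 10 genes whose groups do not overlap, in WT (blue) and KO (orange), with 1 point per library in the order 1 to 3. The black mark beside each group is the mean with the SD (n = 3). Sucla2 and Gpt2 are lower in KO and the other 8 genes higher.

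Partners that make 1 enzyme, or serve the same reaction in 2 compartments, were set against each other within each library, which takes out a shift common to both. Of 10 pairs compared, the groups of 3 pairs (30.0%) did not overlap. Among single genes tested the share was 16.4%. No share over other gene pairs was taken, so the count of pairs has no background of its own kind. Suclg2 over Sucla2, per kilobase of exon, was 0.305, 0.399 and 0.356 across the WT libraries, against 0.493, 0.433 and 0.492 across the KO libraries. This transcript ratio was higher in each KO library than in any WT library. The group means differed by 0.43 on the log2 scale, or from 0.32 to 0.52 with 1 library left out. Protein was not measured. Idh1 over Idh2 was 0.427, 0.356 and 0.642 in WT, against 0.254, 0.294 and 0.340 in KO, a log2 difference of -0.65. Pdha1 over Pdhb was 0.709, 0.688 and 0.677 in WT, against 0.616, 0.668 and 0.619 in KO, a log2 difference of -0.12. A two-sided exact permutation test gave each of these pairs p = 0.1, the smallest that 3 libraries against 3 allow, and a Benjamini-Hochberg adjusted value of 0.333 over the 10 pairs. Slc38a1 over Slc38a2 differed by -0.040 and Glul over Glud1 by 0.058, both with overlapping groups. Exons of Pdha1 overlap those of Map3k15 on the other strand over 16.1% of their length, and reads there cannot be told apart without a known strand setting. Idh3b, Mdh1, Got2, Gls2 and Glul also share exon bases with another annotated gene, over a smaller part of their length in each overlap.

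**Figure D4:**
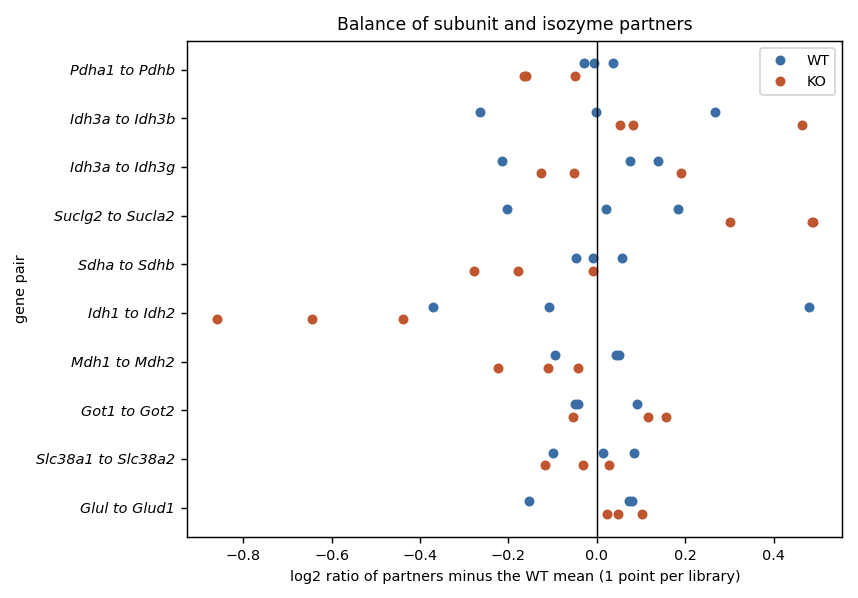
Log2 ratio of each gene pair (per kilobase of exon) minus its WT mean, with 1 point per library, WT in blue and KO in orange. The KO points of Suclg2 to Sucla2 lie to the right of all WT points, and those of Idh1 to Idh2 and of Pdha1 to Pdhb to the left.

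The rest of the pathway was read from 4 further lists of 62 genes, of which 55 were tested, 33 with a higher and 22 with a lower fitted level in KO. None passed over all genes by edgeR or DESeq2. At an unadjusted p under 0.05 there were 5 higher and 4 lower by edgeR, 16.4% against the background of 10.8%, and 10 in all by DESeq2. The genes Pdk4, Slc38a5, Slc6a14 and Slc38a4 had no read in any library, where the limit of 3 counts corresponds to at most 0.111 CPM.

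Pyruvate entry and PDH control had 9 genes higher and 4 lower. Pdk1, a kinase that inactivates PDH, held 118, 120.1 and 102 CPM in WT and 128, 138 and 136 CPM in KO, a log2 fold change of 0.24. Its paralogue Pdk2 was scarce and lower in every KO library (-0.50). Pdpr, the regulatory subunit of PDH phosphatase, held 54.5, 53.1 and 55.6 CPM in WT and 44.5, 44.3 and 48.9 CPM in KO (-0.24). In all 3 genes the groups lay apart and the adjusted p was between 0.385 and 0.453.

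Among neighbours and carriers of the cycle 8 genes were higher and 10 lower. Slc25a13, a mitochondrial carrier that exchanges aspartate for glutamate, had a log2 fold change of 0.57 at 3.73 CPM in WT. The cytosolic malic enzyme Me1 had -0.97 at 1.81 CPM in WT, with groups that overlapped.

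Of the 18 glutamine-consuming and amino acid genes 13 were higher and 5 lower. Bcat2, the mitochondrial branched-chain transaminase, had a log2 fold change of 0.33 and groups that lay apart. The CTP synthase gene Ctps had 0.31 and the GMP synthase gene Gmps 0.20, with overlapping groups. The other amino acid carriers split 3 and 3. Slc3a2, the heavy chain shared by several exchangers that trade glutamine for other amino acids, held 162, 148 and 143 CPM in WT and 201, 213 and 155 CPM in KO. Its value in KO 3 lay below WT 1, and its log2 fold change was 0.33. Slc7a5, which pairs with Slc3a2 to import large neutral amino acids, was at 142 and 146 CPM in KO 1 and KO 2 and at 116 CPM in KO 3, below the WT libraries. Slc38a9, a lysosomal amino acid sensor of the mTORC1 pathway, was lower in every KO library with a log2 fold change of -0.41. Without a filter on low counts Slc3a2 and Slc38a9 passed edgeR's test over all genes, where 3.02% of the genes that otherwise pass the filter were called, and still none of the 33 members did.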

How the data were processed

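Per the labels, Trizol RNA from 3 WT and 3 KO samples went into Vazyme mRNA libraries. The deposited values are raw counts, whole numbers with 1 row for each Ensembl gene. The submitters' processing notes name GRCm39, HISAT2, Subread and featureCounts for them, with versions, annotation and strand setting not given in the sources used here.

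Of 57010 identifiers 52029 took a symbol by Ensembl identifier from GENCODE M21 (GRCm38), used also for exon length and overlap. Analysis used R 4.3.3, edgeR 4.0.16 and DESeq2 1.42.0. The filter on low counts was filterByExpr (minimum count 10, minimum total 15) with TMM scaling, and KO was compared with WT by glmQLFTest, two-sided, with Benjamini-Hochberg adjustment over all 16439 genes and a threshold of 0.05. Standard errors are the log2 fold change over the square root of F. Log2 CPM used a prior count of 2. An exact permutation test of 3 against 3 cannot go below p = 0.1. A count of 0 allows 3 counts, for counting error only. The procedure was run on simulated counts, in which the changes put in were larger than the fitted change of every member but Idh1. It therefore does not say whether changes of the size fitted for the other members would be called. Alternatives were DESeq2 and its size factors, library size scaling, other filters, a replicate block, a sex term and leaving out each library.

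Named genes are all members, Mlxip, Txnip and Arrdc4, and up to 3 genes of smallest p per neighbouring list. The genes named for having no reads were added after their values were seen. Some neighbouring genes are not reported here. Members and lists were chosen with earlier results of these data known. Of the members 6 share exon bases with another annotated gene, and reads shared with near-identical copies were not resolved.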

Additional observations from a re-analysis of the deposited data

How the results depend on the processing

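No setting called a member over all genes, and of 426 member values under the alternatives 404 kept their direction and 22, in 8 genes, took the opposite one. Genes called over the whole table numbered 2 in the main setting, 147 with DESeq2, 511 without a filter on low counts, and 6 with sex by Xist as a second term, which was chosen after seeing the data. With 1 library left out they ran from 2 to 80, the latter without KO 3. Neighbouring genes called were 0 except without the filter, where 2 were. The members' median log2 fold change was 0.050 under library size scaling. The median of all genes tested was then also lower, -0.083 against -0.016 in the main setting. With 1 library left out the members' median ran from 0.040 (without KO 1) to 0.13. The number of members whose groups lay apart ran from 11 to 19 (without WT 2) with 1 library left out. Fewer libraries are then left to separate, and the share over all genes was not taken there, so these counts have no background. Opposite signs were seen for Ogdh with DESeq2 (0.015), with size factors of the DESeq2 type (0.011) and without a filter (0.0042), for Pdha1 (-0.065), Dld (-0.030) and Me2 (-0.035) with library size only, and for Pdha1 among genes averaging 5 CPM or more (-0.021). With 1 library left out the range was -0.077 to 0.068 for Pdha1, -0.13 to 0.031 for Dlat, -0.045 to 0.099 for Dld, -0.057 to 0.037 for Ogdh, -0.11 to 0.033 for Sdha, -0.014 to 0.12 for Mdh1, -0.075 to 0.088 for Me2 and -0.024 to 0.19 for Got2. The cause was not tested. Members at an unadjusted p under 0.05 were 4 higher in the main setting, 7 higher with the sex term, 2 higher and 1 lower under library size scaling, and 6 higher and 1 lower without a filter. With the replicate number as a block they were 3 higher and 1 lower. The members' median was then 0.11, and 2 genes were called over the table and 0 members. The share of all genes at that unadjusted p was taken only in the main setting (10.8%) and with DESeq2 (10.2%). The member counts of the other settings therefore have no background and give no result about the members. Deviations of same-numbered libraries correlated at -0.0057, -0.19 and -0.047 across genes, so the numbers were not taken as pairs, and no library correlated best with its own number. The members with the largest standard errors were Gls2, Idh1 and Gpt2 (0.428, 0.261 and 0.197), and the part of depth in them was not tested.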
